A study of Homo sapiens with 36 samples.

Results

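The comparison described here set the mRNAs on heavy polysomes of HCT116 cells on day 14 (D14) against those on day 7 (D7) of a response to 5-fluorouracil. It used 6 of the 36 libraries of the series, chosen by their labels: the 3 heavy polysomal libraries of D14 and the 3 of D7, with all 15891 listed genes. HCT116 is an established human colorectal carcinoma cell line, and 5-fluorouracil (5-FU) is a drug resembling uracil, which inhibits thymidylate synthase and enters RNA and DNA. Cells of both days had been given 10 µM 5-FU for 48 h, so that D14 and D7 both lay after the exposure and shared it. The other groups used here were the cytoplasmic RNA of D14 and D7, and the heavy pools of D0 (collected before the drug), D1, D2 and D16, each with 3 libraries lettered A, B and C. Cells of D1, D2 and D16 had also been given 10 µM 5-FU, for 48 h on D2 and D16 and for hours not stated on D1. The labels call the letters A, B and C batches and replicates and do not say that they were separate cultures, so p-values measure the spread between these libraries, which may be technical. No culture kept without drug to the later days was analysed here, so the drug's effects and those of the passing days cannot be told apart. In bulk RNA, fewer cells of a kind and less RNA per cell cannot be told apart either.

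A heavy polysome is an mRNA that carries several ribosomes at once. Here emetine halted the ribosomes on their mRNAs, the cytoplasmic lysate was spun through a sucrose gradient, and the fractions whose mRNAs bore more than 3 ribosomes were combined. Poly(A) RNA of the pool was sequenced, so a gene's value reflects both how much of its mRNA there is and how much of that mRNA carries many ribosomes. mRNAs of ribosomal proteins and of some translation factors begin with a run of pyrimidines at the cap, the terminal oligopyrimidine (TOP) motif. Such mRNAs are known to leave polysomes when the kinase mTOR is inactive and to return to them when it is active, with LARP1 as a repressor that binds the motif. In cells damaged by a fluoropyrimidine, p53 is known to induce the cell cycle inhibitor CDKN1A and its own inhibitor MDM2.

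The D14 heavy libraries held between 48720000 and 53620000 reads in the listed genes (to the nearest 10000), and the D7 heavy libraries between 46150000 and 55680000. The SD of a library's log2 values from its group mean lay between 0.182 and 0.209 in these 6 libraries, and between 0.238 and 0.663 in the cytoplasmic libraries of all days. Cytoplasmic library D7 A, at 0.663, stood apart from the rest, and cytoplasmic counts that move by over 1.5 times without it are given both ways. Of 12 colorectal epithelial markers, 9 had values, and their summed level ran from 440705 to 496246 normalised counts in the D14 heavy libraries and from 671982 to 946237 in the D7 heavy libraries. In the test below, 4 of the 9 rose and 4 fell, so the sum does not stand for each marker. VIL1, LGALS4 and CEACAM5 had no value. Of 22 markers of leukocytes, endothelium, fibroblasts, liver, red cells, brain and muscle, 4 had values, summing to between 722 and 1009 on D14 and between 495 and 570 on D7.

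Most genes changed on heavy polysomes. In limma's test on log2(value + 1), 9257 of 15852 tested genes passed an adjusted p of 0.05 (58.4%), with 4670 higher on D14 (29.5%) and 4587 lower (28.9%). With a change of at least 2-fold as well, 1432 genes were higher (9.03%) and 514 lower (3.24%). The median log2 difference over all genes tested was 0.02, with quartiles of -0.39 and 0.50. The groups of 3 libraries did not overlap for 10197 genes (64.3%). The lists of genes below are read against these shares.

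The mRNAs of cytosolic ribosomal proteins rose on heavy polysomes as a body. Of 80 tested ribosomal protein genes, 74 rose and 1 fell, with a median log2 difference of 0.83 against 0.02 over all genes. Of the large subunit's 47 genes 45 rose (median 0.79), and of the small subunit's 33 genes 29 rose and 1 fell (median 0.90). Within letters A, B and C, the list's median was 0.80, 0.86 and 0.87. Ribosomal protein genes took 11.67, 12.644 and 11.961% of the normalised counts in the D14 heavy libraries, against 6.472, 6.877 and 6.383% in the D7 heavy libraries. Every D14 library thus lay above every D7 library, at 12.1 ± 0.5% on D14 and 6.58 ± 0.26% on D7 (SD, n = 3 each), with an exact two-sided permutation p of 0.10, the smallest that 3 against 3 libraries can give.

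**Figure D1:**
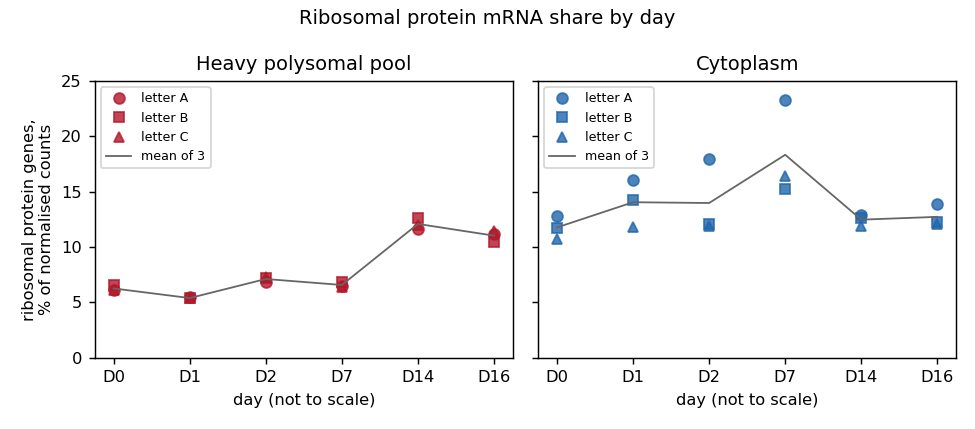
Share of normalised counts in ribosomal protein genes (vertical axes, percent) in each library by day (horizontal axes, not to scale), for the heavy polysomal pool on one panel and the cytoplasm on the other, with the mean of the 3 letters as a line. In the heavy pool the 3 libraries of D14 sit between 11.67 and 12.64% and those of D7 between 6.38 and 6.88%; in the cytoplasm D7 library A stands at 23.331%.

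RPL12, a large subunit protein near the ribosome's stalk (chr9:127447674-127451405, GRCh38), rose most among them. It had 138554, 153075 and 141087 normalised counts in the D14 heavy libraries, against 23395, 24566 and 23274 in the D7 heavy libraries. The libraries within a day lay close together and the days far apart, with a log2 difference of 2.60 ± 0.10 (SE, adjusted p = 1.63e-14), or 6.07-fold. RPS12, a small subunit protein, had 43214, 49726 and 46517 on D14 and 15486, 14116 and 13030 on D7, a log2 difference of 1.71 ± 0.10. RPS28 and RPS29, both small subunit proteins, rose by 1.62 ± 0.10 and 1.60 ± 0.11 on the log2 scale. RPLP0, the base of the stalk and a common reference gene in expression assays, had 178016, 190586 and 185650 on D14, against 69502, 83278 and 81274 on D7 (log2 difference 1.25 ± 0.11, adjusted p = 4.96e-09). For all 5 genes every D14 library was above every D7 library.

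Several ribosomal protein genes did not pass the test. RPL41 had a log2 difference of -0.07 ± 0.13 (adjusted p = 0.649), and FAU, whose product is cleaved to RPS30, one of 0.17 ± 0.10 (adjusted p = 0.156). RPL36A had 38.3, 69.2 and 92.4 normalised counts on D14 and 60.3, 78.9 and 76.6 on D7, and the days overlapped. RACK1, a scaffold on the small subunit, had a log2 difference of 0.22 ± 0.10 (adjusted p = 0.0579). RPS10, between 12.5 and 19.9 on D14 and with 8.0 as its lowest D7 library, had overlapping days and was too low to be read closely. Values of ribosomal protein genes carry some uncertainty, because reads can be split between them and near-identical copies or processed pseudogenes.

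The TOP group outside the ribosome moved less evenly. Of 18 tested TOP mRNAs that encode other proteins or, like GAS5, none, 12 rose and 1 fell, with a median log2 difference of 0.38. EEF1A1, which brings aminoacyl-tRNA to the ribosome, had 688685, 704001 and 741672 normalised counts in D14 heavy libraries and 342147, 366434 and 434552 in D7 heavy libraries (log2 difference 0.91 ± 0.10, adjusted p = 1.23e-07). TPT1, the translationally controlled tumour protein, had 105116, 115246 and 120202 on D14 and 48126, 55518 and 53567 on D7 (log2 difference 1.12 ± 0.10). In both genes every D14 library lay above every D7 library. EIF3K, an initiation factor subunit, fell (log2 difference -0.29 ± 0.10, adjusted p = 0.0117). EEF2, which moves the ribosome along the mRNA, had a log2 difference of 0.12 ± 0.11 (adjusted p = 0.366), and NPM1, a nucleolar chaperone, one of 0.06 ± 0.10 (adjusted p = 0.644).

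Hosts of small nucleolar RNAs, whose spliced transcripts can start with a TOP motif and encode little or no protein, rose further. Of 14 such genes 12 rose and none fell, with a median log2 difference of 1.27. SNHG12 had 1720, 1992 and 1747 normalised counts on D14 and 147, 164 and 101 on D7, a log2 difference of 3.74 ± 0.16 (adjusted p = 1.47e-13) or 13.4-fold. Every D14 library lay far above every D7 library, and the D0 and D16 means were 148 and 1186. GAS5 rose by 1.57 ± 0.12 and SNHG8 by 1.41 ± 0.14 on the log2 scale. SNHG16 had a log2 difference of -0.07 ± 0.11 (adjusted p = 0.613), and SNHG5 one of 0.52 that did not pass.

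The starts of these transcripts are printed to show what the TOP motif looks like in genes that rose and in genes that did not. Each line gives 10 bases before the annotated start and 15 from it on, 5′ to 3′ on the gene's strand, from RefSeq on GRCh38.p14, with the unbroken pyrimidine run at the start in capitals. The first 6 genes rose, and the last 4 (FAU, RPL36A, NPM1 and EEF2) did not pass the test.
RPL12: cgatttccggCCTCTCggctttcgg
RPS12: cggatgaggcCTCTTTCCCTgccgc
RPLP0: ggcgcgaggcCCTTCTCTCgccagg
TPT1: ctgagtcggcCTTTTCCgcccgctc
EEF1A1: cgtgaacgttCTTTTTCgcaacggg
SNHG12: gcttcagcgcCCTTTCTCCCCgccg
FAU: tcgcttcttcCTCTTTCTCgactcc
RPL36A: ctcgcggtttCTTTCTTTCCgcgcc
NPM1: agcctgcgtcCTTTCCCTggtgtga
EEF2: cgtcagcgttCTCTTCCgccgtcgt
These windows lie at chr9:127451392-127451416, chr6:132814559-132814583, chr12:120201097-120201121, chr13:45341169-45341193, chr6:73521018-73521042, chr1:28581859-28581883, chr11:65122120-65122144, chrX:101391001-101391025, chr5:171387839-171387863 and chr19:3985449-3985473. They are in the order of the lines; RPS12, RPL36A and NPM1 are on the plus strand and the others on the minus strand. RPL12, which rose 6.07-fold, had a run of 6 pyrimidines, while FAU and RPL36A, which did not pass, had runs of 9 and 10. Run length at these starts thus did not order these 10 genes by their rise. The genes were picked by hand, and each is shown at an annotated start that holds the motif. Whether run length bears on the rise was not tested.

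The motif was then searched over the starts of a RefSeq promoter table, which does not hold every tested gene. It was taken as a C at the first base followed by at least 4 further C or T bases on the gene's strand. It was present in 48 of the 64 ribosomal protein genes with a RefSeq promoter entry (75%), against 5.14% of the 27305 genes of the table and 7.5% of the 10029 tested protein-coding genes with an entry. Among the other TOP mRNAs 9 of 11 with an entry held it (81.8%), but among small nucleolar RNA hosts only 4 of 12 (33.3%). Here and in the promoter shares below, genes are counted, each when any of its entries held the motif. Ribosomal protein genes with it (43 of 48 higher, median 0.90) and without it (16 of 16 higher, median 0.64) both rose. Of the 16 ribosomal protein genes with no entry, 15 were higher and 1 lower (median 0.88). Of 694 other protein-coding genes with the pyrimidine start, outside the 3 lists above, 220 were higher (31.7%) and 217 lower (31.3%), with a median of 0.02. Of 9260 without it, 27.9% were higher and 34% lower (median -0.05). Annotated starts can differ from the starts these cells use.

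In the cytoplasm, ribosomal protein mRNAs were lower on D14. In the cytoplasmic comparison of D14 with D7, 5656 of 15889 genes passed (35.6%), 2622 higher (16.5%) and 3034 lower (19.1%). Of the 80 ribosomal protein genes 68 fell and none rose, with a median of -1.13. Without D7 library A, 13 fell and none rose (median -0.68), where 9.55% of all genes fell and 9.48% rose. Ribosomal protein genes took 12.887, 12.656 and 11.888% of the D14 cytoplasmic counts, against 23.331, 15.231 and 16.448% of the D7 ones, where the exact permutation p was again 0.10. RPL12 had 147295, 148748 and 135820 in the D14 cytoplasm and 562531, 157769 and 161437 in the D7 cytoplasm, so that its D7 mean rested on library A (log2 difference -0.76 ± 0.38, adjusted p = 0.128; -0.15 without that library). RPS12 had 59188, 56624 and 57114 on D14 and 384837, 108486 and 135613 on D7, lower on D14 against each D7 library (adjusted p = 0.0102, and 0.0653 without library A).

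The difference between the steps was tested in 1 model over all 36 libraries as the heavy change from D7 to D14 minus the cytoplasmic change. It passed for 6508 of 15891 genes (41.0%), 3292 with the heavy step above the cytoplasmic step (20.7%) and 3216 below it (20.2%), with a median of -0.04 over all genes. For ribosomal protein genes 79 of 80 were above and none below, with a median of 1.97, or 78 and a median of 1.56 without cytoplasmic D7 A, where 16.0% of all genes were above and 14.5% below. TOP mRNAs of other genes had 12 of 18 above (median 1.07), 10 without that library, and small nucleolar RNA hosts 12 of 14 (median 1.71), 11 without it. RPL12 differed by 3.36 ± 0.41 between steps (adjusted p = 8.19e-07), or 2.75 without library A. RPLP0 differed by 1.52 ± 0.23 and TPT1 by 2.41 ± 0.39, or 1.69 and 1.88 without it.

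**Figure D2:**
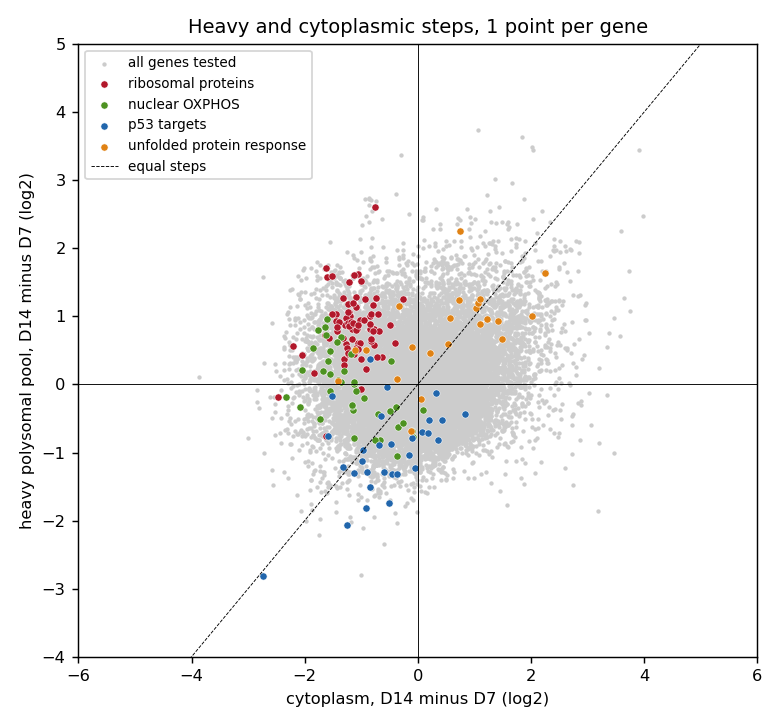
Heavy polysomal step (vertical axis, log2 D14 minus D7) against the cytoplasmic step (horizontal axis, same scale) for each tested gene, with ribosomal protein genes and other lists in colour and a dashed line where the steps are equal. Most ribosomal protein genes sit above the dashed line with positive heavy steps and negative cytoplasmic steps, while RPL36A and RPL41, among others, have negative heavy steps.

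The scaling of the cytoplasm touches these statements. When every library was scaled to the same total instead of by the authors' size factors, the median of all genes moved to 0.48 in the cytoplasm and -0.47 in the difference between steps, and 0.05 in the heavy pool. The share of called genes that were higher became 76.2% in place of 46.4% in the cytoplasm, 29.4% in place of 50.6% in the difference and 53.1% in place of 50.4% in the heavy pool. Over all genes under this scaling, 4790 of 15852 were higher and 4232 lower in the heavy pool, and 4576 of 15889 higher and 1426 lower in the cytoplasm. In the difference 2102 of 15891 genes were above 0 and 5055 below. Of 80 ribosomal protein genes 75 rose in the heavy pool under this scaling (median 0.86), 50 fell in the cytoplasm (median -0.66) and 78 were above in the difference (median 1.53). The cytoplasmic median of the small nucleolar RNA hosts, -0.44 under the authors' scaling, became 0.03. For p53 targets the cytoplasmic counts became 5 lower and 2 higher of 30 (median -0.09), and the difference was below 0 for 19 and above for 1 (median -1.12).

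Across classes of mRNA length the median cytoplasmic step varied more widely than the median heavy step. Protein-coding genes other than ribosomal protein genes were sorted by annotated length into 5 classes, the shortest from 207 to 1507 bases and the longest from 4333 to 43816. From the shortest class to the longest, the median heavy step was 0.12, -0.04, -0.07, -0.07 and -0.10, and the median cytoplasmic step was -0.69, -0.18, 0.18, 0.44 and 0.67. The difference between steps ran from 0.76 in the shortest class to -0.78 in the longest. Heavy calls were 36.8% higher and 24.6% lower in the shortest class, against 25.4% higher and 35.8% lower in the longest. Without cytoplasmic D7 A, the cytoplasmic medians were -0.55, -0.17, 0.11, 0.33 and 0.59 from the shortest class to the longest, and the difference ran from 0.60 to -0.68. Ribosomal protein mRNAs are short, with a median of 738 bases and 75 of 80 in the shortest class. Their heavy median of 0.83 stood beside 0.12 for the other genes of that class, and their difference of 1.97 beside 0.76. The part of length in these results was not tested further.

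**Figure D3:**
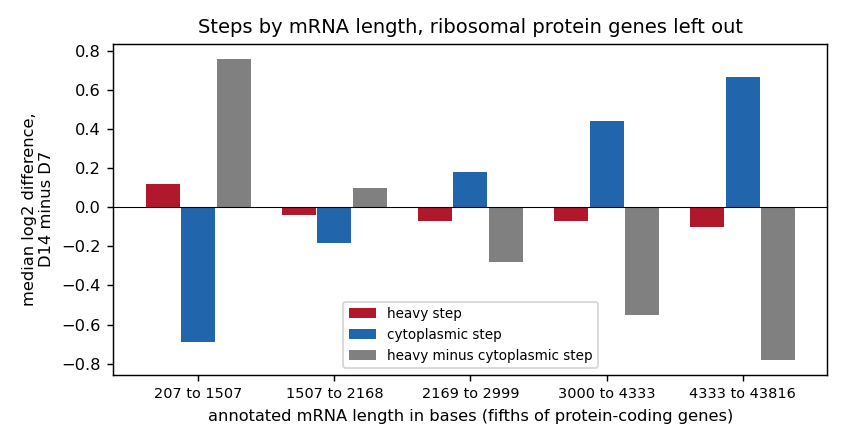
Median log2 D14 minus D7 (vertical axis) in 5 classes of protein-coding genes by annotated mRNA length in bases (horizontal axis), ribosomal protein genes left out, with bars for the heavy pool, the cytoplasm and their difference. Heavy medians stay between -0.10 and 0.12, cytoplasmic medians run from -0.69 in the shortest class to 0.67 in the longest.

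The factors that build ribosomes went the other way from the ribosomal proteins. Of 40 ribosome biogenesis genes 26 fell and 4 rose on heavy polysomes (median -0.46). PES1, of the complex that matures large subunit RNA, had 7803, 7775 and 8179 normalised counts on D14 and 16490, 17065 and 21005 on D7 (log2 difference -1.19 ± 0.09, adjusted p = 1.03e-09). RRP1B, a nucleolar protein of ribosomal RNA processing, fell by 1.10 ± 0.11 on the log2 scale. NOP58, a core protein of small nucleolar ribonucleoproteins, rose, with 3103, 4928 and 3566 on D14 and 1883, 2401 and 1646 on D7 (log2 difference 0.96 ± 0.17). The E-box CACGTG, which MYC can bind, was found in promoters of 15 of the 33 genes of this list with an entry (45.5%). Among all genes of the promoter table the share was 8.77%, and among tested protein-coding genes 12.7%. These and all promoter windows below run from 250 bases before to 50 bases after the RefSeq start and were searched on both strands. MYC itself fell on heavy polysomes, with 27158, 24195 and 25368 on D14 and 34247, 35513 and 46156 on D7 (log2 difference -0.58 ± 0.11, adjusted p = 1.13e-04). In the cytoplasm MYC had 23871, 30438 and 23746 on D14 and 7453, 22078 and 23713 on D7. Without cytoplasmic D7 A its log2 difference there was 0.18 ± 0.23 (adjusted p = 0.601). Any part of MYC in the fall of the listed genes was not tested.

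Other parts of the protein synthesis and turnover machinery fell as well. Of 20 cytosolic aminoacyl-tRNA synthetases, which charge tRNAs, 14 fell and 1 rose (median -0.47). WARS1, for tryptophan, had 4897, 4422 and 4650 on D14 and 9578, 10101 and 13365 on D7 (log2 difference -1.23 ± 0.10), HARS1, for histidine, fell by 1.13 ± 0.10 on that scale, and LARS1, for leucine, was the one that rose (0.39 ± 0.10). The ATF4 core TGATGAA or TGATGCA was in promoters of 7 of the 16 synthetase genes with an entry (43.8%). Among all genes of the promoter table the share was 6.96%, and among tested protein-coding genes 3.95%. For ATF4 targets it was 5 of 18 with an entry (27.8%). Of 24 ATF4 targets, 8 fell and 7 rose (median -0.19), with the transcription factor ATF3 lowest (log2 difference -1.54 ± 0.11). Of 26 proteasome genes 21 fell and 1 rose (median -0.46), among them PSMD2 of the regulatory particle (log2 difference -0.96 ± 0.10) and PSMB5, the chymotrypsin-like catalytic subunit and target of bortezomib (log2 difference -0.81 ± 0.10). In the cytoplasm 17 of these 26 proteasome genes fell (median -0.66), but 9 without D7 A (median -0.54) and 7 when libraries were scaled to the same total (median -0.19). Under that scaling 1426 of all 15889 genes fell in the cytoplasm.

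Initiation and mTOR genes were divided. Of 29 tested genes 14 fell and 9 rose (median -0.26). TSC2, a brake on mTOR, had 1271, 1149 and 1196 on D14 and 3012, 2536 and 3560 on D7 (log2 difference -1.32 ± 0.13, adjusted p = 2.02e-08). RPS6KB2, an S6 kinase downstream of mTOR, had 1516, 1630 and 1402 on D14 and 576, 623 and 605 on D7 (log2 difference 1.33 ± 0.10, adjusted p = 5.15e-10). Each gene's days were well apart. EIF4EBP2, a repressor of the cap-binding protein, rose by 1.00 ± 0.09 on the log2 scale. LARP1, the TOP repressor, fell by 0.73 and MTOR by 0.58 on that scale. EIF3C fell by 1.19 ± 0.13, but has a near-identical copy.

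**Figure D4:**
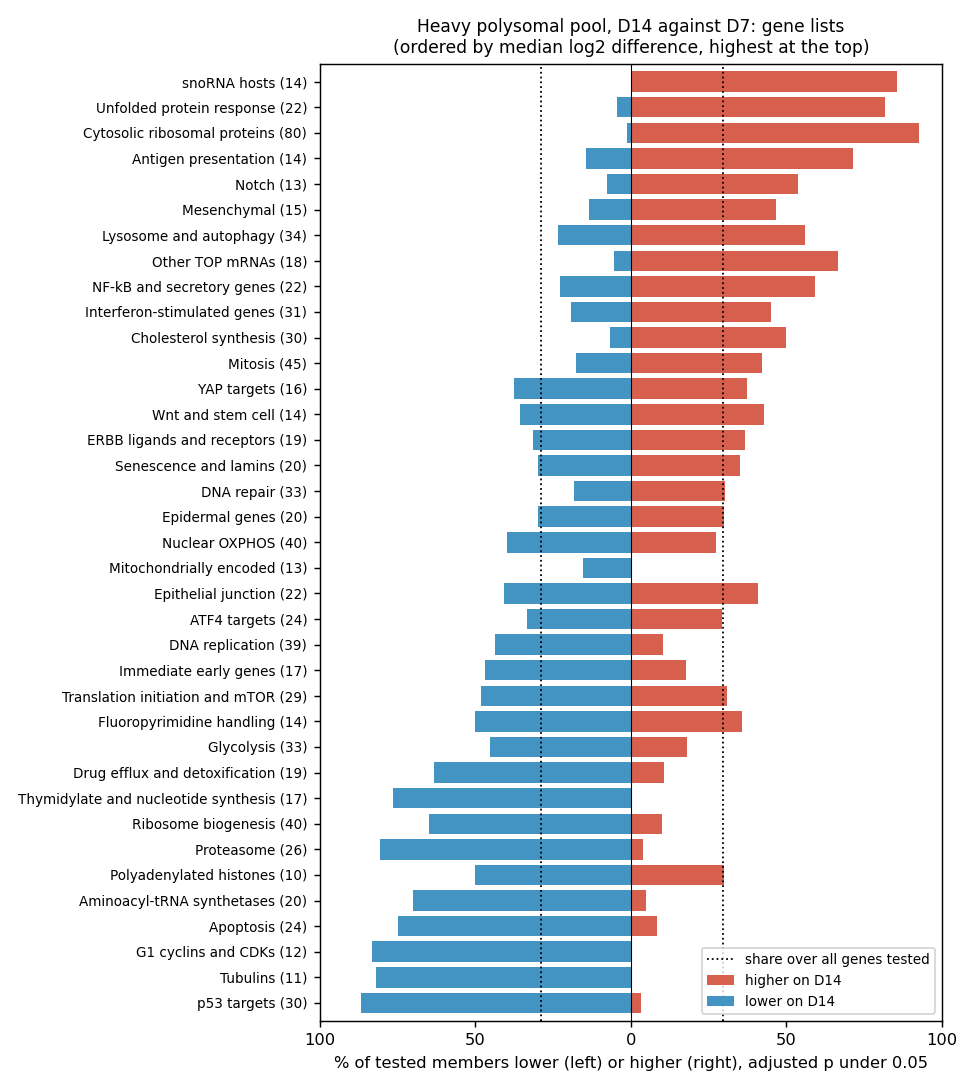
Share of each gene list's tested members that were higher (right) or lower (left) on D14 than on D7 in the heavy pool at an adjusted p under 0.05 (horizontal axis, percent; number tested in brackets), ordered by median log2 difference. The dotted lines mark the shares over all genes, 29.5% higher and 28.9% lower.

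The p53 response stood lower on D14. Of 30 p53 targets 26 fell and 1 rose on heavy polysomes (median -0.92; -0.93, -0.96 and -1.01 within letters A, B and C). CDKN1A, the inhibitor of cyclin-dependent kinases (chr6:36676460-36687339), had 25849, 26788 and 28925 normalised counts on D14 and 106139, 112655 and 124105 on D7. Its groups were far apart, with a log2 difference of -2.07 ± 0.09 (adjusted p = 2.43e-13). TP53I3, a quinone oxidoreductase, fell most, with 1258, 1336 and 1490 on D14 and 7845, 9620 and 11814 on D7 (log2 difference -2.82 ± 0.11, adjusted p = 4.43e-14). MDM2, the ubiquitin ligase for p53, had 3043, 3252 and 3698 on D14 and 7916, 8236 and 8206 on D7 (log2 difference -1.29 ± 0.11). ZMAT3, an RNA-binding p53 target, fell by 1.74 ± 0.15 and TP53INP1 by 1.82 ± 0.15 on the log2 scale. The exception was the cyclin CCNG1, at 5111, 5060 and 5441 on D14 and 3915, 4434 and 3738 on D7 (log2 difference 0.37 ± 0.11, adjusted p = 0.00491).

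By role, 19 of 21 p53 targets of arrest and damage response fell and 1 rose (median -1.13), and both feedback genes fell. Of 7 targets grouped under apoptosis, whether for or against it, 5 fell (median -0.72). The members of this group that did not pass were BAX, at 3721, 4130 and 3734 on D14 and 4255, 4647 and 4093 on D7 (log2 difference -0.17 ± 0.09, adjusted p = 0.123), and BCL2L1, at a log2 difference of -0.13. In the cytoplasm 12 of the 30 targets fell and 1 rose (median -0.57), which became 5 and 2 under total scaling as given above, and 11 and 0 without D7 A. By the authors' scaling the difference between steps was below 0 for 12 and above for 2. TP53I3 fell in the cytoplasm too, with a log2 difference of -2.74 ± 0.20, and its difference between steps was -0.08 (adjusted p = 0.797), which does not show that the steps were equal. CDKN1A fell further on heavy polysomes than in the cytoplasm, where its log2 difference was -1.26 ± 0.23 (difference between steps -0.81, adjusted p = 0.00927, or -0.58 and 0.0468 without cytoplasmic D7 A). More widely among apoptosis genes 18 of 24 fell and 2 rose (median -0.51), including BCL2L11, which encodes the BH3-only protein BIM (log2 difference -1.14 ± 0.11), and 6 of 8 antiapoptotic members.

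Relative to the cells before drug, p53 targets were divided on D14. Against the D0 heavy libraries, which both comparisons share, 18 of the 30 were higher and 8 lower on D14 (median 0.65), where 34.4% of all genes were higher and 37.6% lower. On D7, 27 were higher and none lower (median 1.45), where 27.0% of all genes were higher and 36.5% lower. CDKN1A had mean levels of 10246, 88734, 266216, 114300, 27188 and 18148 normalised counts on D0, D1, D2, D7, D14 and D16. TP53I3 had 898, 11246, 17650, 9760, 1361 and 740 on these days. Both thus peaked at D2 and were lower at each later day.

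**Figure D5:**
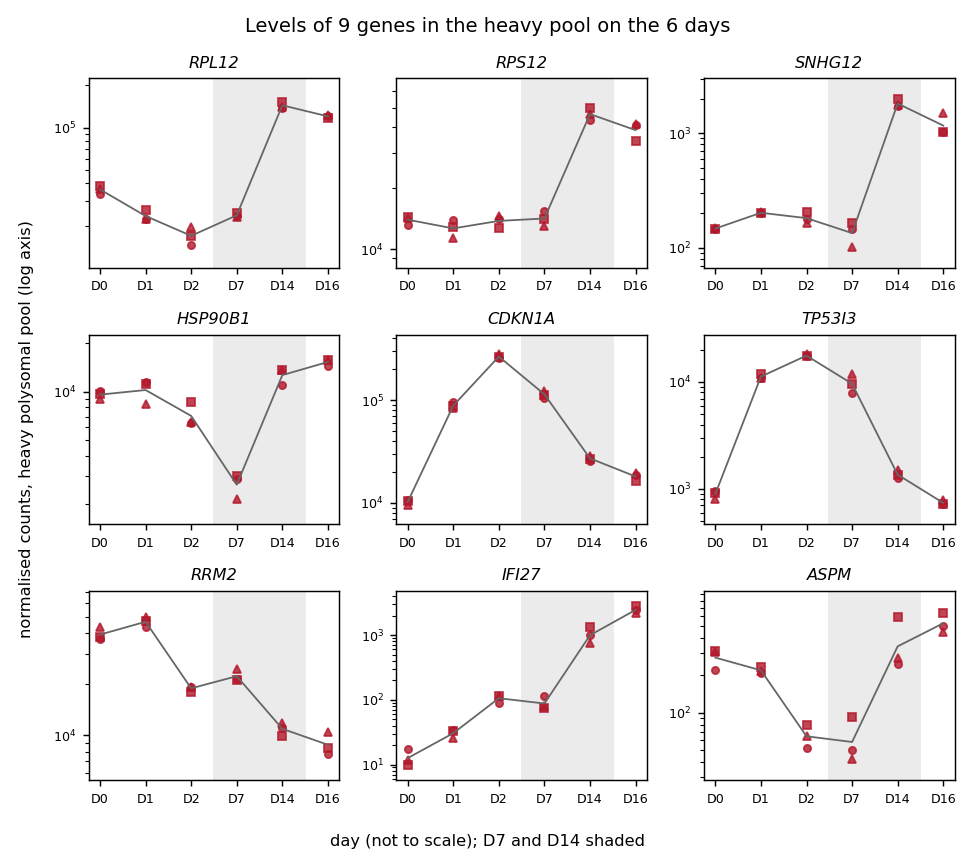
Levels of 9 genes in the heavy polysomal pool (vertical axes, normalised counts, log scale) by day (horizontal axes, not to scale), with 1 point per library, the geometric mean of the 3 as a line, and D7 and D14 shaded. RPL12, RPS12, SNHG12, HSP90B1, IFI27 and ASPM are higher on D14 than on D7 in every library, and CDKN1A, TP53I3 and RRM2 lower in every library.

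Cell cycle genes did not move as 1 block. Of 45 mitosis genes 19 rose and 8 fell on heavy polysomes (median 0.20), and the list took a mean of 0.302% of the counts on D14 and 0.297% on D7. Genes of the spindle, kinetochore and cytokinesis rose in 13 of 25 cases and fell in 2 (median 0.27). ASPM, a spindle pole protein, had 246, 590 and 276 normalised counts on D14 and 49.8, 92.2 and 42.3 on D7 (log2 difference 2.54 ± 0.28, adjusted p = 8.28e-08). SMC4, a condensin subunit, had 1266, 2432 and 1632 on D14 and 567, 961 and 429 on D7 (log2 difference 1.47 ± 0.26). MKI67, the proliferation marker Ki-67, had 2190, 3693 and 2924 on D14 and 1078, 1354 and 639 on D7 (log2 difference 1.55 ± 0.22, adjusted p = 2.92e-06). In each of these long mRNAs letter B was the highest library of its day, and the days did not overlap.

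The kinases and cyclins of mitosis were split, with 6 of 20 higher and 6 lower (median -0.09). CDK1, the mitotic kinase, had 4063, 3401 and 3872 on D14 and 6363, 6135 and 6240 on D7 (log2 difference -0.73 ± 0.11, adjusted p = 1.21e-05). CDC20, an activator of the anaphase-promoting complex, fell by 0.61 ± 0.09 and CCNB1, its cyclin B substrate, by 0.54 ± 0.10 on the log2 scale. PLK1, another mitotic kinase, had 6673, 6515 and 7099 on D14 and 7052, 6994 and 7447 on D7, which did not pass (adjusted p = 0.432). Against D0, mitosis genes were lower on both days, 40 of 45 on D14 (median -1.13) and 42 of 45 on D7 (median -1.48), beside 37.6% and 36.5% of all genes. The cell cycle homology region, TTTGAA or TTCGAA, was in promoters of 29 of the 40 mitosis genes with an entry (72.5%). Among all genes of the promoter table the share was 19.5%, and among tested protein-coding genes 15.3%.

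Replication and G1 genes leaned lower on heavy polysomes. Of 39 DNA replication genes 17 fell and 4 rose (median -0.20), and the list took 0.29, 0.281 and 0.294% of the D14 heavy counts against 0.371, 0.37 and 0.402% of the D7 ones (exact permutation p = 0.10, the smallest possible). The list's cytoplasmic share was higher on D14, at 0.239, 0.254 and 0.234% against 0.123, 0.201 and 0.19% (exact permutation p = 0.10). There 8 genes rose and 6 fell (beside 16.5% and 19.1% of all genes), or 6 and 2 without D7 A (9.48% and 9.55%). The difference between steps was below 0 for 20 and above for 2, or 13 and 2 without cytoplasmic D7 A. Over all genes 20.2% were below and 20.7% above, or 14.5% and 16.0% without it. PCNA, the sliding clamp and also a p53 target, had 11959, 11658 and 12821 on D14 and 22473, 24279 and 27896 on D7 (log2 difference -1.03 ± 0.12). FEN1, the flap endonuclease, fell by 0.96 ± 0.12 on the log2 scale, whereas MCM2, of the replicative helicase, had a log2 difference of -0.29 ± 0.14 (adjusted p = 0.0815). The E2F letters TTGGCGC, or the variants TTCCCGC and TTGGCGG, were in promoters of 26 of the 33 genes of this list with an entry (78.8%). Among all genes of the promoter table the share was 14.3%, and among tested protein-coding genes 23.7%. Of 12 G1 cyclins and kinases 10 fell and none rose (median -0.52). CDK6 had 808, 781 and 870 on D14 and 2324, 2321 and 2238 on D7 (log2 difference -1.49 ± 0.11), and its partner CCND1 37063, 31152 and 39473 on D14 and 84148, 68140 and 94499 on D7 (log2 difference -1.19 ± 0.11).

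Enzymes close to the drug's target were lower on D14. Of 17 genes of thymidylate and nucleotide synthesis 13 fell and none rose (median -0.41). TYMS, the thymidylate synthase that 5-FU inhibits, had 13003, 12506 and 13947 on D14 and 17622, 17681 and 16187 on D7 (log2 difference -0.38 ± 0.09, adjusted p = 7.24e-04). RRM2, the regulated subunit of ribonucleotide reductase, had 11050, 9881 and 11827 on D14 and 21285, 21046 and 24624 on D7 (log2 difference -1.03 ± 0.11, adjusted p = 3.42e-08). Both genes' days were apart, RRM2's by more. UMPS, which makes UMP and converts 5-FU to its nucleotide, fell by 0.87 ± 0.11 and CTPS1, which makes CTP, by 0.85 ± 0.13 on the log2 scale.

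Genes that handle fluoropyrimidines went both ways, 7 of 14 lower and 5 higher (median -0.26). TYMP, thymidine phosphorylase, had 1100, 1110 and 981 on D14 and 1824, 1852 and 2237 on D7 (log2 difference -0.89 ± 0.12). UPP1, uridine phosphorylase, had 1361, 1361 and 1292 on D14 and 597, 601 and 654 on D7 (log2 difference 1.12 ± 0.11, adjusted p = 2.47e-08). Of 19 efflux and detoxification genes 12 fell and 2 rose (median -0.37). Of 33 DNA repair genes 10 rose and 6 fell (median 0.00). MSH3, a mismatch repair protein, had 146, 234 and 166 on D14 and 62.0, 60.2 and 51.1 on D7 (log2 difference 1.62 ± 0.21), and PARP1, a sensor of strand breaks, fell by 0.86 ± 0.11 on that scale.

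Chaperones and enzymes of the endoplasmic reticulum rose. Of 22 genes of the unfolded protein response 18 rose and 1 fell (median 0.91; 0.88, 0.89 and 0.89 within the letters). HSP90B1, the reticulum's HSP90, had 10989, 13646 and 13534 on D14 and 2852, 2979 and 2155 on D7 (log2 difference 2.26 ± 0.13, adjusted p = 1.93e-11). Its D0 mean was 9584, so that its D7 libraries lay below D0 and its D14 libraries above it. HSPA5, the chaperone BiP, had 12457, 11862 and 13589 on D14 and 5208, 5328 and 5951 on D7 (log2 difference 1.20 ± 0.17). CALR and PDIA3, partners in glycoprotein folding, rose by 1.24 ± 0.14 and 1.25 ± 0.12, and EDEM1, which directs misfolded proteins to degradation, by 1.63 ± 0.14 on the log2 scale. HERPUD1, also of that degradation pathway, was the member that fell (-0.68 ± 0.09).

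In the cytoplasm 11 of these 22 genes rose and 3 fell (median 0.65), HSPA5 among them (log2 difference 1.07 ± 0.16). Against D0, 19 of 22 were lower and 2 higher on D7 (median -0.92), and 9 were lower and 5 higher on D14 (median -0.24). Over all genes 36.5% were lower and 27.0% higher than on D0 on D7, and 37.6% lower and 34.4% higher on D14, so that the D14 count of lower genes was close to the background. The NF-Y pentamer CCAAT was in promoters of 19 of the 21 genes of this list with an entry (90.5%). Among all genes of the promoter table the share was 39.7%, and among tested protein-coding genes 43.3%.

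Lysosomal and sterol genes rose in part. Of 23 genes of lysosomal enzymes and membranes 17 rose and 2 fell (median 0.75), whereas of 11 autophagy genes 6 fell and 2 rose (median -0.39). CTSB, a cathepsin, had 15130, 14749 and 15104 on D14 and 6319, 6244 and 6479 on D7 (log2 difference 1.24 ± 0.11). ATP6V0D1, a subunit of the proton pump, went against them, with 2169, 2215 and 2221 on D14 and 5586, 5702 and 6593 on D7 (log2 difference -1.43 ± 0.09). Of 30 cholesterol genes 15 rose and 2 fell (median 0.29), and in the cytoplasm 17 rose and 3 fell (median 1.14), or 17 and 0 without D7 A (median 0.97). INSIG1, which holds sterol sensing in the reticulum, had 2558, 2273 and 2807 on D14 and 576, 465 and 440 on D7 (log2 difference 2.37 ± 0.12, adjusted p = 2.67e-12). Fatty acid synthase FASN fell (-0.68 ± 0.15).

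Interferon-stimulated genes were mixed, with a few large rises. Of a list of 43 names 31 had values, and of these 14 rose and 6 fell on heavy polysomes (median 0.31). Within letters A, B and C the list's median was 0.37, 0.44 and 0.0. IFI27 had 994, 1321 and 750 normalised counts on D14 and 114, 74.2 and 79.8 on D7 (log2 difference 3.49 ± 0.22, adjusted p = 3.95e-11), with letter B highest on D14. IFI6 had 5876, 7350 and 4982 on D14 and 990, 932 and 1184 on D7 (log2 difference 2.54 ± 0.18). IFITM1, which restricts virus entry, and BST2, which tethers virus particles, rose by 2.28 ± 0.22 and 2.10 ± 0.23. ISG15, a ubiquitin-like modifier, fell, with 9292, 10081 and 7921 on D14 and 11321, 12623 and 13227 on D7 (log2 difference -0.45 ± 0.12, adjusted p = 0.00276). TLR3, a sensor of double-stranded RNA, fell by 1.13 ± 0.19 on the log2 scale. OAS3, which makes the activator of RNase L, did not pass (-0.10, adjusted p = 0.577).

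IFI27 had mean heavy levels of 12.9, 30.7, 106, 89.2, 1022 and 2463 on D0, D1, D2, D7, D14 and D16. ISG15 was at 2981, 34467 and 11359 on D0, D2 and D16, so that the 2 genes were highest on different days. Promoter windows of 4 members are printed because the response core, AGTTTC or on the other strand GAAACT, is present both in genes that rose and in ISG15, which fell. Each gives 30 bases on the gene's strand from RefSeq on GRCh38.p14 with the core in capitals.
IFI27: aaagatgtctgcAGTTTCggtttcctggaa
IFI6: agaggggaaaatGAAACTgcagagtgcaga
BST2: cctcctttctggGAAACTgaaactgaaaac
ISG15: gaaagggaaaccGAAACTgaagccaaattt
They lie at chr14:94110614-94110643 (plus strand), chr1:27672284-27672313 (minus), chr19:17405743-17405772 (minus) and chr1:1013384-1013413 (plus), with the core's first base at -110, -109, -130 and -101 from the start. The core was in promoters of 19 of the 24 genes of the list with an entry (79.2%). Among all genes of the promoter table the share was 17.6%, and among tested protein-coding genes 16.4%.

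Antigen presentation and secreted factors rose more often than not. Of 14 genes of antigen presentation 10 rose and 2 fell (median 0.59). B2M, the light chain of class I molecules, had 17673, 18848 and 18606 on D14 and 8119, 8478 and 8495 on D7 (log2 difference 1.14 ± 0.10, adjusted p = 8.04e-09). TAP1, a peptide transporter, fell, with 1889, 1723 and 1978 on D14 and 3633, 3536 and 3650 on D7. HLA genes are closely related, which limits how reads were assigned among them. Of 22 tested NF-kB and secretory genes 13 rose and 5 fell (median 0.38), with 6 of 7 cytokines higher (median 0.83) and regulators split, 7 higher and 5 lower of 15. The chemokine CXCL1 had 158, 193 and 248 on D14 and 73.4, 79.7 and 59.0 on D7 (log2 difference 1.47 ± 0.36). TNFAIP3, an inhibitor of NF-kB, fell by 1.16 ± 0.16 on that scale, and 10 of the 32 listed genes, IL6 and TNF among them, had no value.

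Energy metabolism was lower for glycolysis and divided for respiration. Of 19 glycolytic enzymes 14 fell and none rose (median -0.72). PKM, pyruvate kinase, had 80070, 77919 and 86661 on D14 and 158498, 169048 and 223532 on D7 (log2 difference -1.16 ± 0.13), and HK1, a hexokinase, fell by 1.32 ± 0.15 on the log2 scale. GAPDH had a log2 difference of -0.01 and did not pass. Of 40 nuclear genes of oxidative phosphorylation 16 fell and 11 rose on heavy polysomes (median -0.10). In the cytoplasm 31 fell and none rose (median -1.18), or 22 and a median of -0.93 without D7 A, and the difference between steps was above 0 for 26 and below for 4 (median 1.19; 22, 3 and 0.98 without it). These are mostly short mRNAs, 29 of 40 in the shortest class. ATP5F1B, the catalytic subunit of ATP synthase, fell by 1.05 ± 0.09 and UQCRQ, a small subunit of complex III, rose by 0.85 ± 0.11 in the heavy pool.

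Mitochondrially encoded genes, whose RNA is translated inside mitochondria, were given as a check. Their median was -0.15, but -1.08, 0.20 and 0.41 within letters A, B and C. MT-ATP8 and MT-ND4L fell (log2 differences -0.98 ± 0.26 and -0.66 ± 0.26), and both overlap a neighbouring gene. Their share of heavy counts was 0.181, 0.312 and 0.312% on D14 and 0.338, 0.235 and 0.189% on D7, so that the days overlapped.

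Several signalling lists held single large changes. Of 13 Notch genes 7 rose and 1 fell (median 0.58). LFNG, a glycosyltransferase that modifies Notch, had 329, 356 and 381 on D14 and 104, 85.2 and 90.9 on D7 (log2 difference 1.92 ± 0.15), and the target HES1 fell, with 2955, 2587 and 2360 on D14 and 5408, 5144 and 5753 on D7 (-1.05 ± 0.15). Of 16 YAP targets 6 rose and 6 fell (median 0.17). CCN2, a matricellular protein, had 1101, 929 and 959 on D14 and 220, 147 and 172 on D7 (log2 difference 2.48 ± 0.16), while its step in the cytoplasm was 3.98, or 3.07 without D7 A, where it had 16.5 normalised counts against 139 and 94.6 in the other D7 libraries. NOTUM, a secreted Wnt inhibitor, had 1128, 1060 and 983 on D14 and 222, 173 and 194 on D7 (log2 difference 2.43 ± 0.14), among 14 Wnt genes of which 6 rose and 5 fell (median 0.12). Of 19 ERBB genes 7 rose and 6 fell (median 0.05), with the ligand BTC up by 1.13 ± 0.18.

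Immediate early genes, transcription factors that a stimulus induces quickly, fell in 8 of 17 cases and rose in 3 (median -0.25). EGR3 fell by 2.04 ± 0.26 on the log2 scale. FOSB had 2462, 2097 and 2013 on D14 and 7017, 5672 and 8478 on D7 (log2 difference -1.67 ± 0.23). Within the letters the list's median was 0.04, -0.16 and -0.75, so that it rested most on letter C. Outside the list the orphan receptors NR4A1 and NR4A3 fell with it. NR4A3 had 30.8, 34.2 and 55.7 on D14 and 290, 258 and 287 on D7 (log2 difference -2.80 ± 0.27), with a D0 mean of 31.7.

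Epithelial markers diverged. Of 9 colorectal epithelial markers with values 4 rose and 4 fell (median -0.16). EPCAM, an adhesion molecule, had 15734, 14407 and 17530 on D14 and 6772, 6431 and 7149 on D7 (log2 difference 1.22 ± 0.11), and CDH1, E-cadherin, rose by 1.15 ± 0.16 on that scale. KRT8, a keratin of simple epithelia, had 179878, 180501 and 210766 on D14 and 327234, 372799 and 484136 on D7 (log2 difference -1.04 ± 0.14). Of 15 mesenchymal genes 7 rose and 2 fell (median 0.51), with the matrix protein SPARC highest (log2 difference 2.39). Of 20 epidermal genes 6 rose and 6 fell (median -0.08). SLPI, a protease inhibitor, had 357, 379 and 308 on D14 and 69.0, 59.4 and 74.2 on D7 (log2 difference 2.35 ± 0.27), and SERPINB5, maspin, 2360, 2374 and 2816 on D14 and 8396, 8804 and 10653 on D7 (-1.88 ± 0.10). KLK5, a kallikrein, did not pass (-0.38 ± 0.19, adjusted p = 0.0995), and the ERBB ligand NRG1 fell (-0.52 ± 0.17, adjusted p = 0.0125). Of 4 markers of other lineages COL1A1, DES and HBA1 rose and ITGAM fell, and their part in other results was not tested.

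Further lists were smaller. Of 11 tubulins 9 fell and none rose (median -0.72), with TUBA4A lowest (-1.35 ± 0.10). Of 7 iron genes 3 rose and 3 fell, and the ferritin chain FTL had 22804, 24114 and 20910 on D14 and 10069, 9985 and 11180 on D7 (log2 difference 1.12 ± 0.11). Of 20 genes of senescence and the lamina 7 rose and 6 fell (median 0.03). LMNB1, lamin B1, had 3410, 2771 and 3248 on D14 and 4662, 3854 and 5133 on D7 (-0.53 ± 0.12). CDKN2A, whose ARF and p16 products were counted together, rose by 1.14 ± 0.12. Of 22 junction genes 9 rose and 9 fell, of 5 intestinal differentiation genes 3 fell, of 14 hypoxia and uptake genes 6 rose and 1 fell, of 10 polyadenylated histones 5 fell and 3 rose, and of 7 nuclear-retained RNAs 2 rose and 2 fell.

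Of the 12 largest rises among abundant protein-coding genes, 5 (IFI27, RPL12, ASPM, IFI6 and CCN2) are described above. NCAM1, a neural adhesion molecule, had 156, 141 and 183 on D14 and 14.8, 13.3 and 12.8 on D7 (log2 difference 3.45 ± 0.23, adjusted p = 1.28e-10), beside a D0 mean of 15.5. YPEL1 had 125, 126 and 139 on D14 and 7.0, 13.3 and 14.4 on D7 (log2 difference 3.44 ± 0.23). At such low D7 values the added count of 1 lowers the fold. FXYD6, a regulator of the sodium pump (3.02 ± 0.21), PPP1R1A, an inhibitor of protein phosphatase 1 (2.79 ± 0.20), LRP5L (2.78 ± 0.26), OPN3, an opsin (2.72 ± 0.32) and CCDC92 (2.44 ± 0.12) completed the 12.

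The 12 largest falls were of TP53I3, NR4A3, NR4A1, CDKN1A, EGR3, CYFIP2, CPA4, SERPINB5, CYSRT1, TP53INP1, ALDH1A3 and ACER2. CYFIP2, of the WAVE actin complex, had 3425, 3163 and 3618 on D14 and 12309, 11761 and 15657 on D7 (log2 difference -1.95 ± 0.10, adjusted p = 2.65e-12). ALDH1A3, which makes retinoic acid, had 29770, 25843 and 33809 on D14 and 98462, 91781 and 120181 on D7 (-1.79 ± 0.11). CPA4, a carboxypeptidase, fell by 1.95 ± 0.22, CYSRT1 by 1.86 ± 0.14 and ACER2, a ceramidase, by 1.77 ± 0.19 on the log2 scale. CYFIP2, CPA4, CYSRT1 and ALDH1A3 had D0 means of 5020, 276, 255 and 31132, and their D7 libraries all lay above these.

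The heavy step exceeded the cytoplasmic step most for BOLA3, a mitochondrial iron-sulphur cluster factor. It had 1725, 1746 and 1702 on D14 and 539, 566 and 473 on D7 in the heavy pool (log2 difference 1.71 ± 0.12), and 1776, 1486 and 1853 on D14 and 15970, 4672 and 4391 on D7 in the cytoplasm. Its difference between steps was 3.74 (adjusted p = 8.13e-07), or 3.13 without cytoplasmic D7 A. ARPC1A, of the ARP2/3 complex (3.56), PDCD5 (3.36), RPL12 (3.36), TMA7 (3.34) and RPS12 (3.34) followed. The heavy step fell short most for RAVER1, a splicing factor, with a difference of -3.75 (adjusted p = 9.46e-04), or -2.86 without that library. HASPIN, a mitotic histone kinase (-3.50), ACER2 (-3.35), RALGAPA2 (-3.19), PRC1, which bundles spindle microtubules (-3.18), and TTC4 (-3.12) came next, and without that library these 5 ran from -1.64 to -2.62.

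The other days place the step. Between D16 and D14, which lie closer in time, 2989 genes passed (18.9%). Ribosomal protein genes took 6.12 to 6.54, 5.36 to 5.45, 6.85 to 7.27, 6.38 to 6.88, 11.67 to 12.64 and 10.43 to 11.46% of heavy counts on D0, D1, D2, D7, D14 and D16. Against D0, where 11413 genes passed on D14 (72.0%) and 10066 on D7 (63.5%), 70 of the 80 ribosomal protein genes were higher and none lower on D14 (median 0.82), and 10 were higher and 28 lower on D7 (median -0.12). Small nucleolar RNA hosts were higher in 13 of 14 cases on D14 (median 1.75) and in 8 on D7, where 3 were lower (median 0.37). RPL12 had mean levels of 36344, 23536, 17089, 23745, 144239 and 120189 on D0, D1, D2, D7, D14 and D16, highest on D14. Interferon-stimulated genes rose again after D14, with 18 of 31 higher and none lower on D16 than on D14 (median 0.68), where 8.68% of all genes were higher and 10.2% lower. Proteasome genes were lower than on D0 in 24 of 26 cases on D14 (median -0.77) and in 16 on D7 (median -0.32).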

How the data were processed

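The deposited values are a signal, read counts per gene divided by 1 size factor per library, as the authors' table gives them (normalised counts). Per the submitters' processing notes, the tools were DESeq2 1.30.1, featureCounts (Subread 2.0.1), STAR 2.7.9a, cutadapt 3.2 and FastQC 0.11.9, with GRCh38 as build; the strand setting and filter are not given in the sources used here, so overlapping genes may share reads. Per the labels' protocols, libraries were poly(A)-selected and marked by strand. Of 54 columns 36 belong to the samples and 18 were not used. All 15891 listed genes exceed 1 in every column (smallest 1.004), so silent genes are not listed. Values were whole multiples of 1 read in each library (100% within 0.01), from which depths were summed.

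Values were taken as log2(value + 1), and a gene entered a fraction's fit when 3 or more of that fraction's libraries reached 10. limma 3.58.1 (R 4.3.3; group means, trend) was fitted to all 18 libraries of a fraction, or to all 36 for the difference between steps, which shares 1 spread although the cytoplasm varies more. Tests were two-sided with Benjamini-Hochberg adjustment over all genes tested. Fold changes understate low genes. The heavy fit was also run on simulated counts in which far fewer genes changed than passed here. The cytoplasm and the difference between steps were not simulated, so this checked the code and not the steps reported. pandas 2.3.3, scipy 1.17.1 and matplotlib 3.10.9 were also used. Of the gene identifiers 15856 had a symbol; coordinates and lengths are of GENCODE 29.

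Members and lists were chosen with earlier results of these data known. Named genes were, in each direction, the 12 called protein-coding genes that moved most, given a day mean of 100 or more and the same sign in A, B and C; besides these, up to 4 called members of each list, the 6 largest differences between steps each way and 15 fixed genes, 192 in all; other members that are named, such as those that went against their list, were chosen after their values were seen. The letters pair libraries, since the labels call them batches. Same-letter deviations of heavy D14 and D7 libraries correlated at 0.16, 0.33 and 0.13, cytoplasmic ones at 0.06, -0.12 and -0.13. Alternatives varied the pseudocount, filter, scaling, GC correction, letter block, libraries in the fit and test. Some members of the lists are counted but not reported here by name.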

Additional observations from a re-analysis of the deposited data

Results flagged for a closer look

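For 23 named genes the heavy and cytoplasmic steps from D7 to D14 both passed the test in opposite directions, and the difference between the steps was tested and passed. These come from 192 named genes, chosen in part as the 6 largest differences between steps each way. The share of such genes over all genes is not given here, so the count of 23 does not show how common they are. The heavy step was the higher one for 14 of them. Ribosomal and TOP genes among these were RPS12 (3.34), RPS28 (2.66), RPS29 (2.73) and TPT1 (2.41), each value being the heavy minus the cytoplasmic log2 step. The mitochondrial proteins BOLA3 (3.74), NDUFV2 (2.57) and UQCRQ (2.49), and the ferritin chain FTH1 (2.40), were higher in the same way. So were ARPC1A (3.56), PDCD5 (3.36), TMA7 (3.34), HES4 (2.58), the long non-coding RNA PVT1 (2.49) and CDKN2A (1.98).

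The heavy step was the lower one for 9. These were RAVER1 (-3.75), ACER2 (-3.35), RALGAPA2 (-3.19), PRC1 (-3.18), TTC4 (-3.12), PARP1 (-1.65), LMNB1 (-1.35) and the mitochondrially encoded MT-ND4L (-2.75) and MT-ATP8 (-2.20). All 23 differences passed without cytoplasmic D7 A and kept their sign. The cytoplasmic step alone passed for 13 of the 23 without that library. RPS12, RPS28, RPS29 and TPT1 were among those whose cytoplasmic step did not pass (adjusted p of 0.0653, 0.196, 0.196 and 0.0671). The 23 genes were picked by their steps in these same data, so neither count is a separate test of them. FTH1 had 302716, 387428 and 359681 normalised counts in the D14 cytoplasm and 1223768, 768646 and 955777 in the D7 cytoplasm.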

How the results depend on the processing

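Between 7413 and 10190 genes passed in the heavy pool under all alternatives, 8175 to 8842 when a single library was left out. In the cytoplasm, 5656 calls became 3241 with D7 and D14 only and 8880 with GC bins and the replicate block together, and 3024 to 6028 when a library was left out, the lowest without D7 A. For the difference between steps, 6508 calls became 4303 with D7 and D14 only and the replicate block, and 4123 to 6935 with a letter of a day left out, lowest without D7 A; without cytoplasmic D7 A alone there were 4851. The causes were not tested. With the replicate block alone, 9490 genes passed in the heavy pool (9216 shared with the fit without it), 7059 in the cytoplasm and 6912 in the difference, which changed no count by over 1.5 times. Of 4029 results for the 192 named genes in the heavy pool under 21 alternatives, 3988 stayed on their side of the threshold in the same direction, 32 no longer passed, 9 newly passed and none reversed; 11 genes were involved, among them ITGAM, HBA1, PRC1, RALGAPA2, MT-ND4L and NRG1 (lost) and MCM2 and KLK5 (gained). Ribosomal protein genes that rose numbered 72 to 75. The planned edgeR and DESeq2 fits were not run; limma voom on whole reads and TMM factors from separate code, chosen after seeing the data, took their place. Depth limited genes near 10 counts, such as RPS10, and no untreated late culture was analysed here.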
